A study of Mus musculus with 8 samples.

Results

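The genes described here are 10 AP-1 and immediate early genes of the mouse, Fos, Fosb, Jun, Junb, Jund, Atf3, Egr1, Egr2, Ier2 and Ier3, out of 55450 genes listed for replicates 1 to 3 of each group. They were chosen by symbol, and the Ensembl identifiers of all 10 were found in the table of replicates 1 to 3 and in the separately made table of replicate 4, which lists 24848 genes. RNA came from bone marrow cells of mice with SS dry eye, the dryness of Sjögren's syndrome (SS), in which immune cells attack the glands that make tears and saliva. The cells had been induced to become dendritic cells and were then given phosphate-buffered saline (PBS; the vehicle group) or recombinant S100A8/A9. S100A8 and S100A9 are small proteins that bind calcium, pair with each other and are shed by neutrophils and monocytes in inflamed tissue. Each group held 4 libraries, and the comparison asks which signaling responses the protein pair evokes in these cells. The labels give no strain, sex, age, dose or time of exposure, and do not say whether replicates came from separate animals or cultures, so p-values measure only the spread between these libraries, which may be technical.

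AP-1 is a dimer of basic leucine zipper proteins. FOS proteins bind DNA only when paired with a JUN protein, whereas JUN proteins can also pair with each other, and ATF3 joins the same network. These genes, together with the zinc finger factors EGR1 and EGR2 and the small regulators IER2 and IER3, are called immediate early because ERK, JNK and p38 kinases can switch them on from factors already present in the cell, before any new protein is made. Most of their transcripts, with Jund as an exception, are short-lived and often peak and fade within hours in stimulated myeloid cells. The level in a culture then depends on when RNA was taken. Their proximal promoters are known for cAMP response elements (CRE), serum response elements with a CArG box, and NF-kB sites.

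RefSeq promoters on GRCm38.p6, the build that mm10 names, were found for 8 of the 10 genes. The 250 bases before each start were searched on both strands for the CRE (TGACGTCA), its variant TGACATCA, the AP-1 site TGANTCA, the EGR site GCGNGGGCG, the TATA box TATAAA, the CArG box and the NF-kB consensus. None of the matches overlap one another. The windows of Fos, Fosb, Jun and Egr2 are printed because they hold the matches of the Fos, Jun and Egr families, with each match in capitals and read 5′ to 3′ on the strand of the gene. They cover chr12:85473640-85473889 on the forward strand for Fos, chr7:19310052-19310295 on the reverse strand for Fosb, chr4:95052223-95052472 on the reverse strand for Jun and chr10:67537619-67537868 on the forward strand for 1 of the 5 listed Egr2 starts.
Fos: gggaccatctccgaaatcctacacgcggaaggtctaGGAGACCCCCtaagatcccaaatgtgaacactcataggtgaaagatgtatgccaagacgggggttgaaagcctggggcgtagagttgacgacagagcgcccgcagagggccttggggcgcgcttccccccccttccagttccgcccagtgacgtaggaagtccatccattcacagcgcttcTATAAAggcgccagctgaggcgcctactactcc
Fosb: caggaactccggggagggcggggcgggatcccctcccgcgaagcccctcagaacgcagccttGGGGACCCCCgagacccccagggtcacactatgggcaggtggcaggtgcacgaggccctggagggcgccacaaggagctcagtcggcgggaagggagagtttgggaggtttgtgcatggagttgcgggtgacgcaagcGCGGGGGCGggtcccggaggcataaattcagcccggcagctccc
Jun: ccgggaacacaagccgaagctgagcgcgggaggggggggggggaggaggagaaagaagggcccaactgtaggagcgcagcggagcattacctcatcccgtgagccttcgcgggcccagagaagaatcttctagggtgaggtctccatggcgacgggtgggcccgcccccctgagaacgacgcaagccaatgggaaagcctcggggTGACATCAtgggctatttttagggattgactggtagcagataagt
Egr2: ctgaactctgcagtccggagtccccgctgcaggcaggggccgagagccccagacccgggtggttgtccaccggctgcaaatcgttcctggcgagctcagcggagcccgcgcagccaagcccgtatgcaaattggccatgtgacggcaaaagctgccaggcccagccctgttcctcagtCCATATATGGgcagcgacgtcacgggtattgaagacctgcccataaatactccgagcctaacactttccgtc

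Fos holds a TATA box from 33 to 28 bases before its start and an NF-kB match further upstream, and Fosb holds an EGR site and an NF-kB match. Jun holds the CRE variant from 45 to 38 bases before its start, and Egr2 holds a CArG box. Over all 32851 RefSeq promoter windows of 250 bases, the TATA letters occurred in 12.4%, the EGR site in 4.70%, the NF-kB consensus in 3.90%, the CRE variant in 2.93%, the CArG box in 1.47%, the CRE in 1.55% and the AP-1 site in 6.75%. Ier3 also holds an NF-kB match, while the windows of Junb, Jund and Atf3 held none of the patterns. The Jund window, chr8:70697489-70697738, ends well before the annotated start of the gene at 70698949. The bases directly before that start were not searched, so nothing follows for them. A match describes letters only and does not show binding.

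Values are FPKM, fragments scaled to gene length and library depth, so that levels can be compared between genes. Tests used limma on log2(FPKM + 1) over the 11387 genes that reached 1 FPKM in 3 or more of the 6 libraries of replicates 1 to 3, and all 10 genes passed this filter. The 2 tables were made differently: low values were whole multiples of 1 read, within 0.01 reads, for 98.55% and 98.77% of values in replicate 4 but for 5.33% to 6.14% in replicates 1 to 3. Replicate 4 implied 31900000 reads with vehicle and 33400000 with S100A8/A9, and the others about 22800000 to 25700000 as rough estimates. The titles carry an abbreviation usual for macrophages. Macrophage and dendritic cell genes were present together: Csf1r lay between 109 and 213 FPKM, Itgax between 47.2 and 66.9 FPKM and Ccr7 between 141 and 227 FPKM in replicates 1 to 3, while the dendritic cell lineage genes Flt3 and Zbtb46 lay at or below 0.921 and 3.62 FPKM. In such bulk samples, fewer cells of a type and less RNA per cell cannot be told apart.

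None of the 10 genes differed between S100A8/A9 and vehicle past an adjusted p of 0.05, in limma with group as the only term (adjusted p = 0.9998 for each) or with the replicate number added as a block. Among all genes tested the group-only fit called 0 (percent called 0), with 344 at an unadjusted p under 0.05, and the blocked fit called 59, or 0.518%. At an unadjusted p under 0.05 the blocked fit held 5 of the 10 genes (7.97% of all genes) and the group-only fit 0 (3.02%). No gene of the 10 had S100A8/A9 values wholly above vehicle (4.71% of all genes) or wholly below (1.94%). Fos, Fosb, Junb, Atf3 and Egr1 had higher FPKM with S100A8/A9 in each of the 3 pairs, Jund had lower FPKM in each, and the other 4 genes went both ways. Over all genes, 19.4% were higher in each of the 3 pairs and 9.62% lower. The median log2 difference was 0.20 over the 10 genes and 0.03 over all genes tested. That median rested largely on S100A8/A9 replicate 3, without which it was 0.03 in the group-only fit. In the same fit it was 0.08 without vehicle replicate 1 and 0.31 without S100A8/A9 replicate 1, but leaving out 1 library splits a pair. With the block and a whole pair left out, it was 0.242 without replicate 1, 0.197 without replicate 2 and 0.085 without replicate 3.

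**Figure D1:**
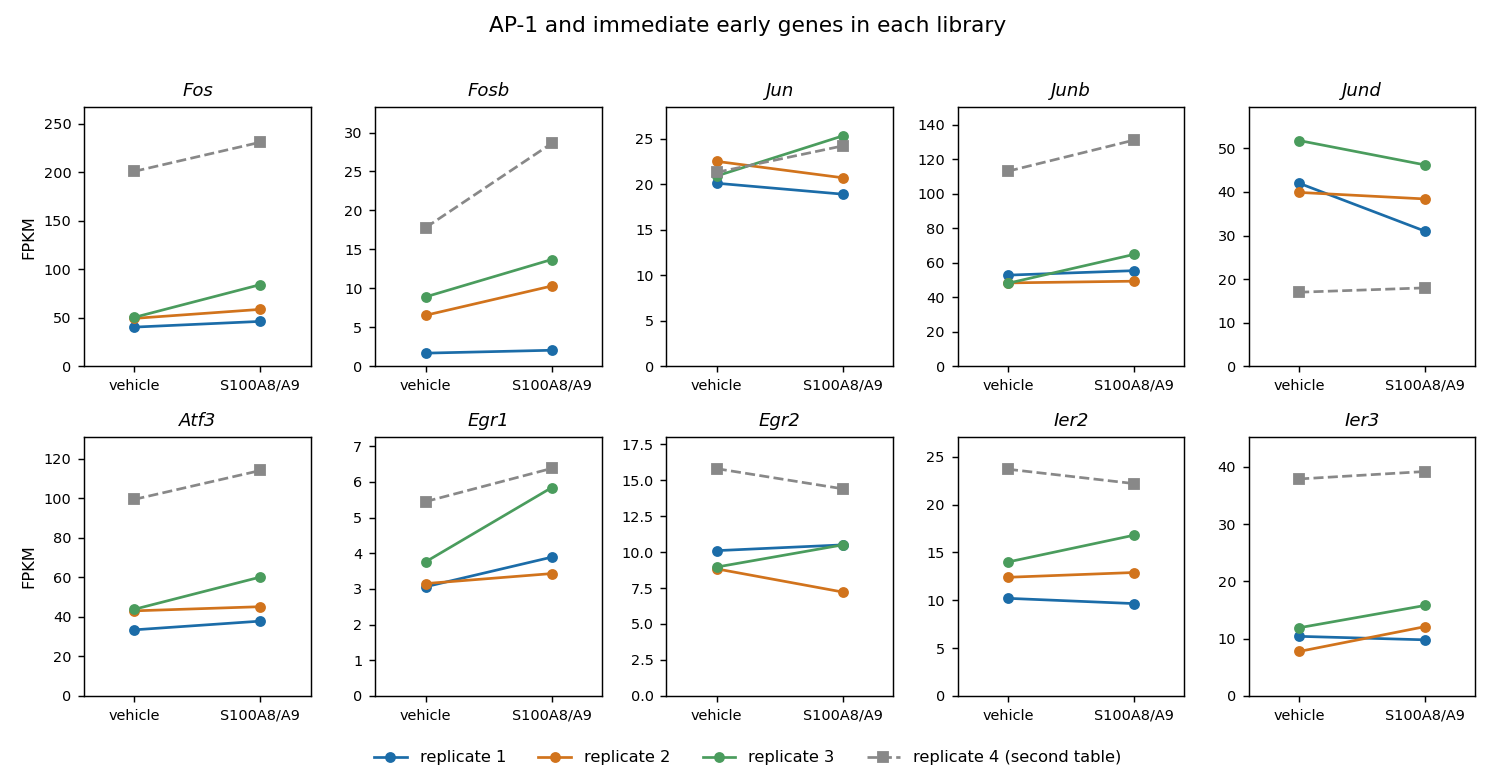
FPKM (y axis, from 0, a scale of its own for each gene) of the 10 genes in each library, with a line joining vehicle and S100A8/A9 libraries of the same replicate number; grey squares are replicate 4 from the second table. Fosb goes from 1.69 to 13.7 FPKM across replicates 1 to 3, and each gene's vehicle and S100A8/A9 values overlap in range.

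Fos encodes c-FOS, the best known partner of JUN proteins (ENSMUSG00000021250, chr12:85473890-85477273, forward strand, 4 merged exons). It stood at 40.4, 49.4 and 50.5 FPKM in vehicle replicates 1 to 3 and at 46.3, 58.7 and 84.2 FPKM with S100A8/A9. S100A8/A9 replicate 3 was well above the other 5 libraries, and S100A8/A9 replicate 1 lay below vehicle replicates 2 and 3, so the groups overlapped. The means were 46.7 ± 5.56 and 63.1 ± 19.3 FPKM (SD, n = 3 each), and the within-pair ratios were 1.15, 1.19 and 1.67. In replicate 4 Fos went from 201 FPKM in vehicle to 231 FPKM in the S100A8/A9 library, a ratio of 1.15. The log2 difference over replicates 1 to 3 was 0.39, with a 95% interval from -0.11 to 0.89 without the block and from 0.13 to 0.65 with it, before any adjustment for the number of genes. It was 0.16 without S100A8/A9 replicate 3 and 0.59 without S100A8/A9 replicate 1. Its adjusted p in limma with the block was 0.352, and over all 20 alternative settings the adjusted p lay between 0.246 and 1.

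Fosb encodes a close relative of c-FOS (ENSMUSG00000003545, chr7:19302696-19310051, reverse strand). It had the largest geometric mean of within-pair ratios among the 10 genes, 1.43, and the largest differences between replicate numbers. Vehicle replicates 1 to 3 held 1.69, 6.55 and 8.91 FPKM, and S100A8/A9 replicates 2.06, 10.3 and 13.7 FPKM. Replicate 1 was low in both groups, and its S100A8/A9 library lay within the vehicle range while replicates 2 and 3 lay above it. The ratios within pairs were 1.22, 1.57 and 1.54. Replicate 4 held 17.8 and 28.6 FPKM, a ratio of 1.61, from about 3553 and 5972 implied reads. The log2 difference was 0.44, with a 95% interval from -1.12 to 2.01 without the block and from 0.19 to 0.70 with it, and the adjusted p in limma with the block was 0.260 (0.116 to 1 over the alternatives). In the fit that ignores pairs the log2 difference was -0.12 without vehicle replicate 1, 1.13 without S100A8/A9 replicate 1 and 0.003 without S100A8/A9 replicate 3. With the block and a whole pair left out, it was 0.573 without replicate 1, 0.376 without replicate 2 and 0.382 without replicate 3.

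Among the JUN genes, Junb was higher and Jund lower with S100A8/A9 in each of pairs 1 to 3, with overlapping groups, and Jun went both ways. Junb, whose protein can restrain as well as replace c-JUN (ENSMUSG00000052837, chr8:84974484-84978718, reverse strand), was at 52.8, 48.3 and 48.1 FPKM with vehicle and at 55.4, 49.3 and 64.8 FPKM with S100A8/A9. The ratios of 1.05 and 1.02 in the first pairs were small beside 1.35 in the third, and after quantile normalization the log2 difference of pair 2 was -0.016. Replicate 4 had 113 and 131 FPKM. Annotated exons of Junb overlap those of Prdx2 on the other strand, and the protocol names no strand marking, so reads there cannot be assigned with certainty.

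Jund encodes the JUN protein that is usually present in resting cells (ENSMUSG00000071076, chr8:70698949-70700616, forward strand, 1 exon). It stood at 42.0, 39.9 and 51.8 FPKM with vehicle and at 31.0, 38.4 and 46.2 FPKM with S100A8/A9, so each treated library was below its own pair but the groups overlapped. The ratios were 0.738, 0.962 and 0.893, and replicate 4, with 17.0 and 18.0 FPKM, had a ratio of 1.06. The log2 difference was -0.21, with a 95% interval from -0.61 to 0.18 without the block and from -0.41 to -0.01 with it, and the blocked limma fit gave it an adjusted p of 0.582 (0.487 to 1 over the alternatives). The difference was -0.07 without S100A8/A9 replicate 1, -0.10 without vehicle replicate 3 and -0.35 without S100A8/A9 replicate 3. An antisense gene, Gm11175, shares exon sequence with Jund, and the antisense gene Junos does so with Jun. Jun, which encodes c-JUN (ENSMUSG00000052684, chr4:95049034-95052222, reverse strand), was at 20.1, 22.5 and 20.9 FPKM with vehicle and at 18.9, 20.7 and 25.3 FPKM with S100A8/A9. Its log2 difference of 0.02 had a 95% interval from -0.27 to 0.31 and turned negative with upper-quartile factors, quantile normalization and median-of-ratios factors.

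Atf3 encodes a stress-induced factor that curbs Toll-like receptor responses in macrophages (ENSMUSG00000026628, chr1:191170296-191218039, reverse strand). Vehicle libraries held 33.4, 43.0 and 43.8 FPKM and S100A8/A9 libraries 37.8, 45.1 and 60.1 FPKM, with ratios of 1.13, 1.05 and 1.37. As with Fos, the S100A8/A9 library of replicate 3 was the highest and that of replicate 1 lay among the vehicle values. Replicate 4 had 99.4 and 114 FPKM, a ratio of 1.14. The log2 difference was 0.23, with a 95% interval from -0.21 to 0.67, and it was 0.05 without S100A8/A9 replicate 3.

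Egr1 was the least abundant of the 10 genes by mean FPKM in replicates 1 to 3, and Egr2 lay above it. Egr1 encodes a growth and stress responsive factor under the control of serum response factor (ENSMUSG00000038418, chr18:34859823-34864984, forward strand). It was at 3.06, 3.15 and 3.76 FPKM with vehicle and at 3.89, 3.43 and 5.84 FPKM with S100A8/A9, giving ratios of 1.27, 1.09 and 1.56. Only S100A8/A9 replicate 2 fell within the vehicle range. Replicate 4 gave 5.45 and 6.38 FPKM, from about 779 and 955 implied reads. The log2 difference of 0.30 had a 95% interval from -0.12 to 0.71 without the block and from 0.02 to 0.57 with it, and the blocked limma fit gave an adjusted p of 0.575 (0.425 to 1 over the alternatives). Without S100A8/A9 replicate 3 the difference was 0.11. Egr2, which takes part in macrophage and T cell differentiation (ENSMUSG00000037868, chr10:67535475-67542188, forward strand), was at 10.1, 8.83 and 8.96 FPKM with vehicle and at 10.5, 7.22 and 10.5 FPKM with S100A8/A9. Its pairs went both ways, and the 95% interval of its log2 difference of 0.00 ran from -0.35 to 0.36, so a change of that size in either direction was within the error.

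Ier2 encodes a nuclear protein induced by growth factors (ENSMUSG00000053560, chr8:84661331-84662852, reverse strand), and Ier3 encodes a stress-inducible regulator of cell survival (ENSMUSG00000003541, chr17:35821684-35822923, forward strand). Ier2 was at 10.2, 12.4 and 14.0 FPKM with vehicle and at 9.65, 12.9 and 16.8 FPKM with S100A8/A9, so replicate 1 was lowest in both groups and the ratios were 0.943, 1.04 and 1.21. Ier3 was at 10.4, 7.76 and 11.9 FPKM with vehicle and at 9.79, 12.1 and 15.8 FPKM with S100A8/A9, with ratios of 0.937, 1.55 and 1.33. In replicate 4 Ier2 had 23.7 and 22.2 FPKM and Ier3 had 37.9 and 39.2 FPKM. Their log2 differences were 0.08 and 0.29, with 95% intervals from -0.39 to 0.54 and from -0.18 to 0.76. That of Ier3 was 0.12 without S100A8/A9 replicate 3, 0.13 without vehicle replicate 2 and 0.44 without S100A8/A9 replicate 1. A two-sided exact permutation test of 3 libraries against 3, which cannot go below p = 0.1 and ignores the pairs, gave exact p = 0.3 for Fos, 0.5 for Fosb and 0.2 for Egr1 (n = 3 each).

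**Figure D2:**
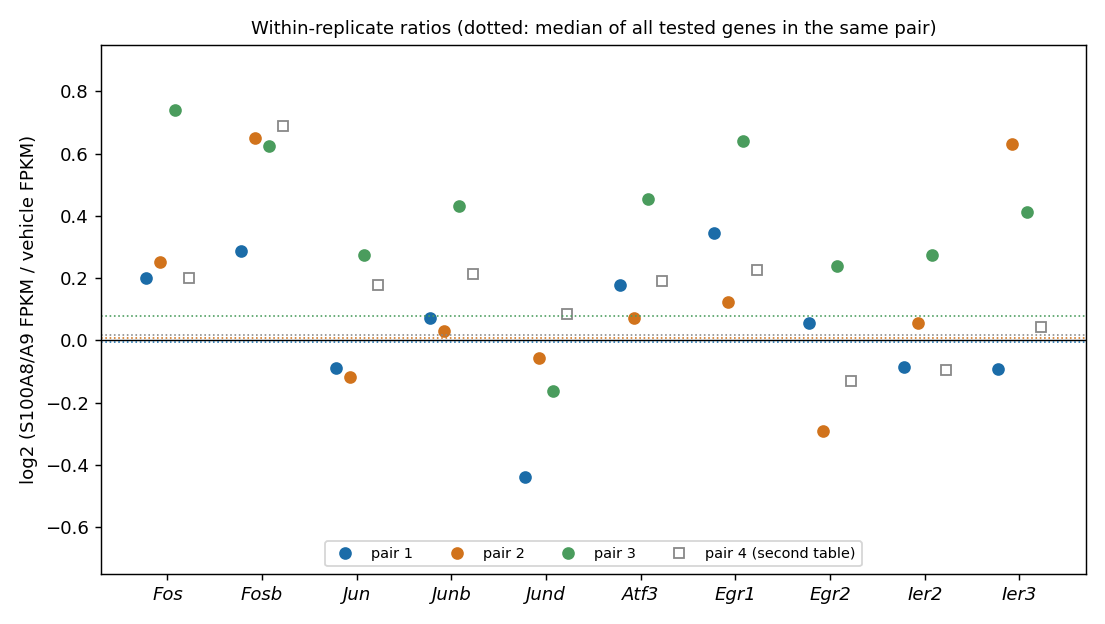
Log2 ratio of S100A8/A9 to vehicle FPKM (y axis) within each pair for the 10 genes. Filled circles are pairs 1 to 3 and open squares are pair 4 from the second table. Dotted lines give the median over all tested genes in that pair of the log2 ratio of FPKM + 1. The points carry no added 1, so those of low genes lie further from 0 than on the scale of the lines. Pair 3 is the highest of pairs 1 to 3 for 7 of the 10 genes, and its all-gene line lies at 0.08.

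The pairs contributed unequally. The median log2 ratio of log2(FPKM + 1) values over the 10 genes was 0.06 in pair 1, 0.06 in pair 2 and 0.40 in pair 3, against -0.01, 0.01 and 0.08 over all genes tested. In pair 4 it was 0.18, against 0.02 over 11180 genes. S100A8/A9 replicate 3 was the highest of the 6 libraries for 9 of the 10 genes, Jund being the exception, and for 34.6% of all genes. The 9 include Egr2, for which S100A8/A9 replicates 1 and 3 were level at 10.5 FPKM after rounding. The ratio of pair 3 was the largest of the 3 for 7 of the 10, and for 48.7% of all genes. Fos, Fosb, Junb, Atf3 and Egr1 were also higher with S100A8/A9 in replicate 4, so that 5 of the 10 were higher in each of 4 pairs, against 11.7% of the genes in both tables. With median-of-ratios or upper-quartile factors or a common sum the same 5 were higher in pairs 1 to 3, and with quantile normalization the 4 without Junb. The share of all genes higher in those pairs moved to 15.1% with median-of-ratios factors and to 11% with upper-quartile factors, and the share lower to 14.2% and 19.5%.

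The neighbors of the 10 genes in the pathway showed no call in either fit. Among 13 tested of 14 other AP-1 family members 0 passed, 3 were higher in each of the 3 pairs and 1 was lower, with a median log2 difference of -0.01. Batf2, a factor that interferons induce in macrophages, was at 5.73, 6.33 and 4.98 FPKM with vehicle and at 7.61, 8.20 and 6.46 FPKM with S100A8/A9, with ratios of 1.33, 1.30 and 1.30 and a limma adjusted p, blocked, of 0.230. All 3 S100A8/A9 libraries exceeded the highest vehicle library, as held for 1 of the 13 and for 4.71% of all genes. Batf2 was named for the smallest p of its list in the blocked fit, which favors genes with such a separation. Atf4, the main factor of the integrated stress response, had ratios of 1.12, 1.07 and 1.14, and Mafk, a small MAF protein, had 1.18, 1.13 and 1.08.

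Of 24 tested of 30 other immediate early genes 0 passed, 7 were higher and 0 lower in each of the 3 pairs, and the median log2 difference was 0.08. Zfp36, which encodes the RNA-decay protein tristetraprolin that destabilizes cytokine transcripts, was at 60.1, 56.4 and 61.9 FPKM with vehicle and at 66.7, 65.1 and 90.5 FPKM with S100A8/A9, with a limma adjusted p, blocked, of 0.372. Its highest library was again S100A8/A9 replicate 3. Its S100A8/A9 values lay wholly above vehicle, as held for 1 of the 24 and for 4.71% of all genes, but Zfp36 too was named for its small p. Pim1, a serine kinase gene, had ratios of 1.15, 1.09 and 1.29, and Sgk1, another serine kinase gene and the most abundant of the list, had 1.24, 1.21 and 1.01. Among 9 tested MAP kinase phosphatases, which end the kinase signals, 0 passed and 4 were higher in each pair. Dusp5 had ratios of 1.36, 1.11 and 1.17 and Dusp1 had 1.03, 1.33 and 1.19, and Dusp3 had 0.925, 0.895 and 1.01. Replicate 4 gave 0.994 for Dusp5 and 1.39 for Dusp1.

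The kinases and factors upstream of the 10 genes had no call either. Of 18 tested MAP kinases and their kinases 0 passed, 6 were higher and 1 lower in each pair, and the median log2 difference was 0.08. Mapkapk2, the p38-activated kinase MK2, had ratios of 1.18, 1.20 and 1.16 and a limma adjusted p, blocked, of 0.274, but 0.982 as its ratio in replicate 4. Mapk14, the gene of p38 alpha, had ratios of 0.865, 0.880 and 0.870, with 1.02 in replicate 4. Map3k8, which relays Toll-like receptor signals to ERK, had ratios of 1.20, 1.05 and 1.20, and Mapk3, the gene of ERK1 and the most abundant of the list, had 0.968, 0.913 and 1.10. Of 19 factors of the SRF, ternary complex and CREB group 0 passed, 4 were higher and 4 lower in each pair, and the median was 0.01. Nab1, a repressor of EGR proteins, had ratios of 1.14, 1.30 and 1.11, Creb1 had 1.07, 1.52 and 1.26, and Mrtfa, a coactivator of SRF, had 0.927, 0.860 and 0.947.

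Of 15 genes with described AP-1 sites 0 passed, 7 were higher and 0 lower in each pair, and the median was 0.12. Il1b, the interleukin 1 beta gene, was at 1.85, 3.61 and 6.75 FPKM with vehicle and at 3.12, 5.82 and 10.3 FPKM with S100A8/A9, and replicate 1 was the lowest of both groups, as for Fosb. The ratios of Il1b were 1.69, 1.61 and 1.52, and 1.80 in replicate 4. Its limma adjusted p, blocked, was 0.0631, the smallest of this list and short of the threshold. Tnf, an inflammatory cytokine gene, had ratios of 1.16, 1.14 and 1.26. Mmp13, a collagenase gene, had 1.12, 1.08 and 1.07, and the macrophage elastase gene Mmp12, the most abundant of the list, had 1.16, 0.996 and 1.12. For comparison, 17 of 25 tested interferon-stimulated genes were called higher in the blocked limma fit, with a median of 1.12, where 0.501% of all genes were called higher. None of the 25 was called in the group-only fit, and their median log2 ratio was 1.46, 1.06 and 0.90 in pairs 1 to 3 but 0.18 in pair 4. Those 17 calls could not all hold with the block and median-of-ratios factors, where 3 genes in all were called, and none held with the block and all 8 libraries or with the block and no filter, where 0 were called. Heat shock genes had 0 of 11 called in either fit, where the blocked fit called 0.518% of all genes, and a median of 0.01. Dnaja1, Dnajb1 and Hspd1, with the smallest p of that list, had adjusted p-values of 0.830, 0.899 and 0.904 in the blocked limma fit, and Hsp90ab1, its most abundant gene, had ratios of 1.01, 1.00 and 1.07.

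**Figure D3:**
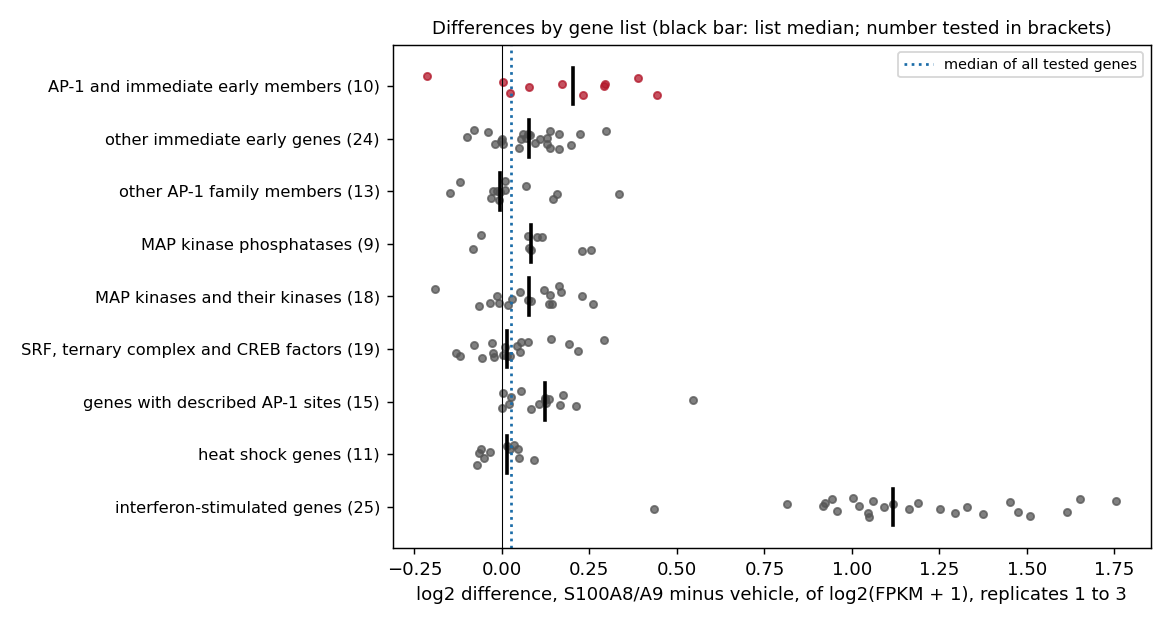
Log2 difference between S100A8/A9 and vehicle in log2(FPKM + 1) over replicates 1 to 3 (x axis) for each tested gene of 9 lists, with the number tested in brackets, a black bar at the list median and a dotted line at the median of all genes. The 10 AP-1 and immediate early genes (red) have a median of 0.20, the heat shock genes 0.01 and the interferon-stimulated genes 1.12.

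Within the AP-1 pool, the summed FPKM of Fos and Fosb made up 26.8%, 33.6% and 33.0% of the total of Fos, Fosb, Jun, Junb and Jund in vehicle replicates 1 to 3, and 31.5%, 38.9% and 41.8% with S100A8/A9. The share was thus higher in each pair, and the groups overlapped. Junb held 26.7% to 36.1% of the pool over these 6 libraries and Jund 19.7% to 28.7%. In replicate 4 the Fos and Fosb share was 59.1% with vehicle and 60.0% with S100A8/A9, and Jund held 4.59% and 4.16%. These shares describe transcripts and not dimers.

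**Figure D4:**
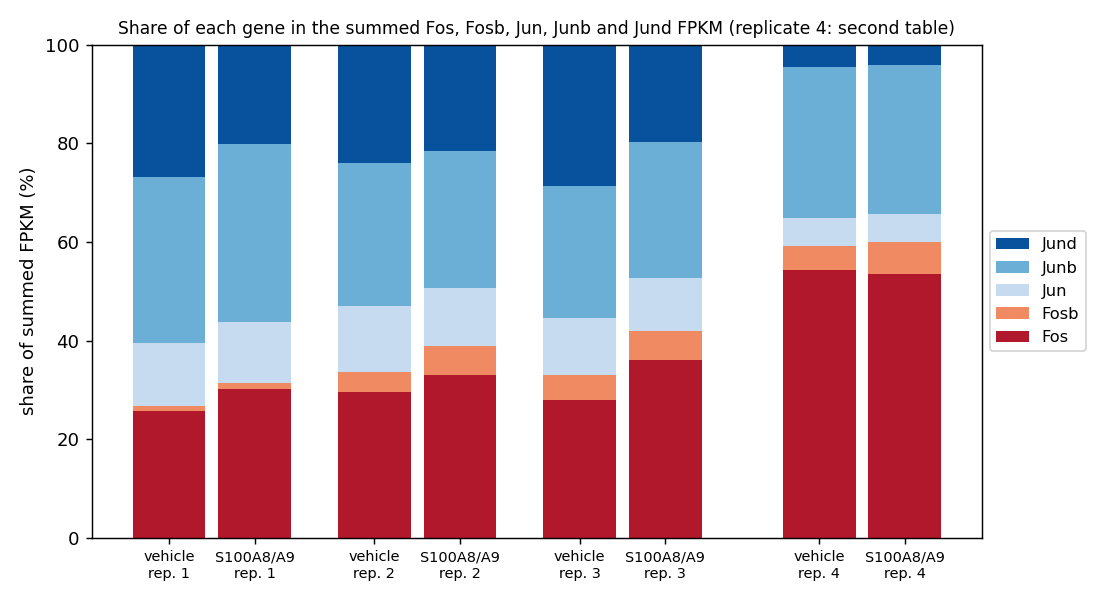
Share (%, y axis) of Fos, Fosb, Jun, Junb and Jund in their summed FPKM, 1 bar per library, ordered by replicate number with vehicle before S100A8/A9. The Fos and Fosb share lies between 26.8% and 41.8% in replicates 1 to 3 and at 59.1% and 60.0% in replicate 4 from the second table.

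Levels of 3 of the 10 genes differed between replicate numbers. With group in the model, an F test in limma of the replicate numbers 1 to 3 called Fosb (adjusted p = 0.00108), Ier2 (adjusted p = 0.0357) and Atf3 (adjusted p = 0.0467), or 3 of the 10 genes, where 12.7% of all genes were called. Between the lowest and the highest replicate Fosb differed 5.26-fold with vehicle and 6.63-fold with S100A8/A9, against 1.36-fold and 1.75-fold for Ier2 and 1.31-fold and 1.59-fold for Atf3. The call of Atf3 was lost with median-of-ratios factors (adjusted p = 0.0603), upper-quartile factors (0.0572) and quantile normalization (0.0555). Fos was just outside the threshold at 0.0690 and Jund at 0.0688, and scaling to a common sum brought Fos inside it (adjusted p = 0.0461 in limma), with 4 of the 10 genes and 1810 of all genes called. Marker genes of cell types moved with the replicate number too. The summed level of the 12 macrophage markers was 6131, 4698 and 3954 FPKM with vehicle and 6327, 4974 and 4230 FPKM with S100A8/A9, with none at 0. The 14 neutrophil markers summed to 129.8, 146.1 and 273.4 FPKM with vehicle and to 130.1, 154.7 and 264.2 FPKM with S100A8/A9, with at least 1 of the granule genes Elane, Camp and Ltf at 0 in each of the 6 libraries. Most of the rise in that sum came from S100a8. It was at 9.72, 44.1 and 125 FPKM with vehicle and at 11.4, 52.5 and 113 FPKM with S100A8/A9. Ly6g, another of the 14, lay between 0.24 and 0.636 FPKM. The 8 erythroid markers summed to 3.21, 9.56 and 129.1 FPKM with vehicle and to 4.63, 7.58 and 115.0 FPKM with S100A8/A9. The 12 pan dendritic cell markers summed to between 3718 and 5562 FPKM, with none at 0. The part of these cell types in the levels of Fosb, Ier2 and Atf3 was not tested. Within each pair the marker sums of macrophages and neutrophils differed less between treatments than between replicates 1 and 3.

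**Figure D5:**
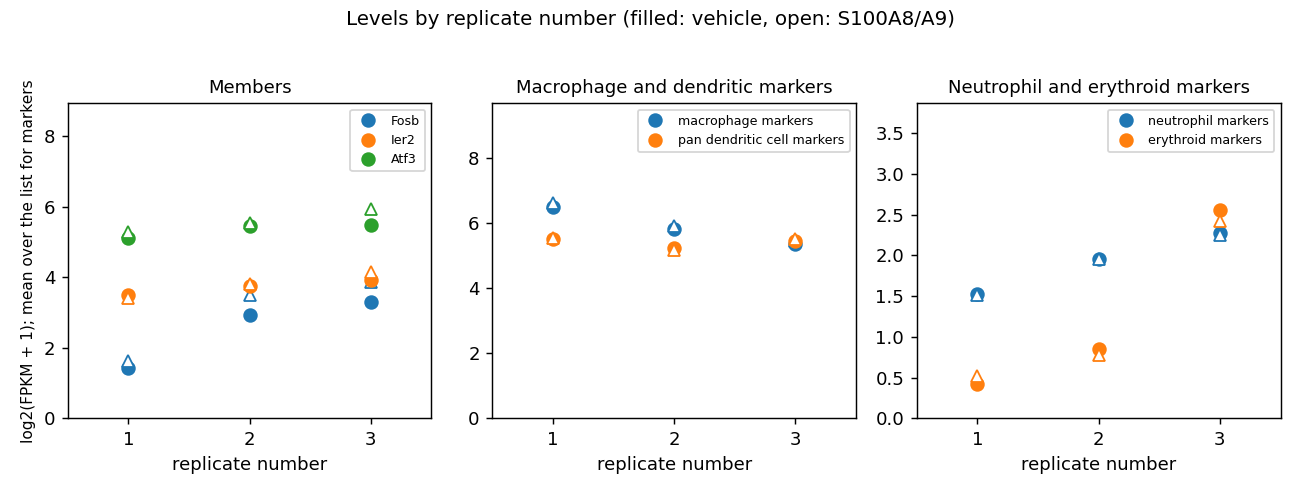
Levels on the log2(FPKM + 1) scale (y axis, from 0) by replicate number for Fosb, Ier2 and Atf3 (left), and means over the marker lists of macrophages and dendritic cells (middle) and of neutrophils and erythroid cells (right); filled circles are vehicle and open triangles S100A8/A9. Fosb and the neutrophil and erythroid markers are lowest in replicate 1 of both groups, and the macrophage markers are highest there.

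The genes nearest to Fos in pattern, by the root mean square difference of centred log2(FPKM + 1) values over the 6 libraries among 6453 genes whose mean reached 5 FPKM, were Acsl1 (0.092), Mir22hg (0.10), Nfkbib (0.101), Chchd7 (0.112) and Rgs1 (0.113). The pattern of Fos itself had a root mean square of 0.33. Acsl1, which activates fatty acids, was at 30.0, 37.7 and 44.9 FPKM with vehicle and at 40.0, 48.9 and 65.6 FPKM with S100A8/A9. The genes nearest to Egr1 were Gstm1 (0.059), Marcksl1 (0.061), Zfp36 (0.072), Ninj1 (0.074) and Inpp5b (0.079), against 0.251 for Egr1 itself.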

How the data were processed

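Messenger RNA of 8 libraries was measured, 4 with vehicle and 4 with S100A8/A9. Poly(A) RNA was fragmented and reverse transcribed with random priming, per the labels' protocols. Listed in the submitters' processing notes are mm10, DESeq2 1.34.0, Subread, featureCounts and HISAT2, with no role given. The deposited numbers were read as FPKM of Ensembl genes: this follows from their ranges and sums, as the headers name no unit. The series table and the sample tables held the same values.

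Symbols came from a table of Ensembl names and positions from GENCODE M21 on mm10. Depth was read from FPKM, exon length and the commonest low value. The design had foreseen FPKM or counts, and limma-trend (limma 3.58.1, R 4.3.3) was run on log2(FPKM + 1) of replicates 1 to 3, because replicate 4 was normalized separately. Genes needed 1 FPKM in 3 of 6 libraries. Calls used a two-sided Benjamini-Hochberg adjusted p under 0.05 over all genes. Fold differences on this scale understate those of low genes. The limma fit was tested on simulated data, and the other steps were not.

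Libraries of the same replicate number deviated together from their group means, with correlations of 0.59, 0.25 and 0.52 over genes, against -0.53 to -0.01 for different numbers, so the numbers were taken to pair them and a fit blocked on that number is given. What the numbers stand for is not in the labels.

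The 10 genes and all lists were chosen with earlier results of these data known. Named genes were the 10, the 3 smallest p-values of the blocked fit and the most abundant gene in each list of the pathway, and the 5 nearest genes in pattern to Fos and to Egr1. Some genes that this rule or the marker lists hold are not reported here. Alternatives were the block, all 8 libraries, 4 other scalings, a pseudocount of 0.1, no filter, and leaving out libraries. Promoter sequences are RefSeq's on GRCm38.p6. The replicate 4 reads were not tested as counts.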

Additional observations from a re-analysis of the deposited data

How the results depend on the processing

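None of the 10 genes was called under any of the 20 alternatives, and Fos, Junb, Jund, Atf3, Egr1 and Ier3 kept their direction under each. The count over all genes, 0 with group as the only term, was 59 with the replicate block, 3 with the replicate block and median-of-ratios factors, 0 with the replicate block and all 8 libraries (smallest adjusted p 0.0996 in limma), 0 with the replicate block and no filter (0.755), and 0 to 98 over fits that left out libraries: 1 without vehicle replicate 2, and in the replicate block 40 without replicate 1, 98 without replicate 2 and 7 without replicate 3. The pairing changed no call of the 10 genes.

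The log2 difference of Egr2, 0.002, was -0.029 with all 8 libraries (with or without the block), -0.017 with a common sum, -0.034 with quantile normalization, -0.051 with upper-quartile factors and -0.025 with median-of-ratios factors (with or without the block). That of Jun, 0.022, was -0.007 with median-of-ratios factors (with or without the block) and -0.034 with upper-quartile factors or quantile normalization. Over fits that left out libraries, values ran from -0.118 to 1.134 for Fosb, -0.099 to 0.11 for Jun, -0.103 to 0.165 for Egr2 and -0.107 to 0.265 for Ier2. Both ends for Fosb came from group-only fits that left out 1 library of replicate 1 and so split a pair. In the replicate block Fosb was at 0.573 without replicate 1, 0.376 without replicate 2 and 0.382 without replicate 3. In the replicate block Egr2 was at -0.024 without replicate 1 and Ier2 at -0.011 without replicate 3, and without S100A8/A9 replicate 3 alone Jun was at -0.091 and Egr2 at -0.08. The cause was not tested.

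Between replicate numbers, 1450 genes and 3 of the 10 were called, against 18 and 0 without the filter on low values, where 32091 genes were tested.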

Other observations

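The 2 tables placed these genes at different levels in the vehicle libraries. The log2(FPKM + 1) value of replicate 4 exceeded the mean of replicates 1 to 3 by 2.09 for Fos, 1.84 for Ier3, 1.68 for Fosb, 1.30 for Atf3 and 1.17 for Junb, and was lower for Jund, at -1.33, while Jun differed by 0.02. Over 11180 genes the median was 0.06, and the range from the 5th to the 95th percentile ran from -1.25 to 1.39. With S100A8/A9 the values were 1.90 for Fos and -1.04 for Jund. The tables were made separately, so the processing and the cultures cannot be told apart here.

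The ratio of Fos to Jund FPKM, a pair picked after its values were seen, was 0.962, 1.24 and 0.975 in vehicle replicates 1 to 3 and 1.49, 1.53 and 1.82 with S100A8/A9, so the groups did not overlap. Fos was higher and Jund lower in each of pairs 1 to 3, so a higher ratio in each of these pairs was given by the choice. How many other gene pairs separate the groups was not counted. A factor that scales a whole library leaves the ratio unchanged, which does not make up for how the pair was picked. In replicate 4 the ratio was 11.8 with vehicle and 12.8 with S100A8/A9. No test was run on it.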
